A study of Mus musculus with 8 samples.

Results

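The 10 genes described here make and recycle glutathione or use it, or otherwise detoxify oxidants and reactive carbonyls: Gpx2, Cbr3, Glrx, Nqo1, Hmox1, Gclm, Gclc, Gsr, Txnrd1 and Gstm1. They were taken by symbol from the platform annotation, which pairs 18 of the 22626 probe sets tested with them, or 10 of 12393 genes. The list was selected on measured differences between the genotypes of these same arrays, and which comparison served is not recorded, so every difference from wild type or between mutants below is given as a description of the members, with no test. Tests are given for 90 other genes of the same metabolism and its regulators, which do not include the members. Their lists were also drawn up with earlier results of these data known. The shares of called genes below therefore describe these lists and are no independent test.

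Messenger RNA was measured on Affymetrix Mouse430A_2 arrays in CJ7 cells, a mouse embryonic stem cell line, in 4 groups of 2 arrays each: wild type, Ezh2-/-, Eed-/- and Jarid2-/-, all labelled with the strain cj7. EZH2 and EED are core subunits of Polycomb repressive complex 2 (PRC2), which methylates histone H3 and keeps genes silent, and JARID2 helps to recruit it. All cells grew in serum with leukemia inhibitory factor and with β-mercaptoethanol, a reducing agent, and received no treatment. Each genotype was compared as a line, so the missing subunit and other differences between the lines cannot be told apart, and no label tells if a group's arrays stem from different cultures, so p-values and SDs measure only the spread between these arrays.

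Glutathione is a small peptide that cells keep mostly reduced and spend on peroxides, disulphides and electrophiles. Glutamate-cysteine ligase limits its synthesis, glutathione reductase restores it, peroxidases, glutaredoxins and transferases use it, and the thioredoxin system works beside it. Many of these genes are known targets of NFE2L2 (NRF2), a transcription factor that KEAP1 holds down and BACH1 opposes at shared sites. Embryonic stem cells are known for active antioxidant defence, and PRC2 is known to bind mainly at promoters rich in the dinucleotide CpG.

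Signals are the deposited intensities on a linear scale. Array medians lay between 323.6 and 352.4, and negative control probe sets read 23.76 to 147.91. Ezh2 and Eed signals were lowest in their own mutant (14.5% and 35.2% of wild type at the brightest probe set). The Ezh2 signal was also lower in the Jarid2-/- labelled arrays, at 63.0% of wild type (log2 -0.66, adjusted p = 0.0015 with limma). None of 3 Jarid2 probe sets was lower in the Jarid2-/- labelled arrays, where the deleted part is not given and the probe sets may lie outside it. Pluripotency markers such as Pou5f1 and Sox2 were bright in every group. Of 10 such markers 5 were called higher and 1 lower in Ezh2-/- (median log2 difference 0.25). In Eed-/- 2 were called higher and 0 lower (median 0.14), and in the Jarid2-/- labelled arrays 3 higher and 1 lower (median 0.12). The marker called lower was Zfp42 in both Ezh2-/- and the Jarid2-/- labelled arrays. Fibroblast markers differed between groups as well. The summed signal of 18 measured ones lay between 38455 and 42436 in wild type, 17270 and 17671 in Ezh2-/-, 24229 and 32302 in Eed-/- and 18024 and 20164 in the Jarid2-/- labelled arrays. Of these 18, 10 were called lower and 0 higher in Ezh2-/- (median log2 difference -0.76). In Eed-/- 4 were called lower and 1 higher (median -0.18), and in the Jarid2-/- labelled arrays 9 lower and 0 higher (median -0.68). Col3a1, Dcn, Lum, Pdgfrb, Postn and Prrx1 read within the range of the negative controls in every group. The summed signal of 11 trophectoderm markers lay between 21548 and 29052 in wild type, 4414 and 5447 in Ezh2-/-, 12864 and 24918 in Eed-/- and 6855 and 8439 in the Jarid2-/- labelled arrays. Krt8, Krt18, Krt19 and Tfap2c carried most of that sum and were the 4 of 11 called lower in Ezh2-/-, where 0 were called higher and the median log2 difference was -0.23, while Cdx2, Hand1 and Ascl2 did not pass the test. In Eed-/- 3 of the 11 were called higher (Eomes, Krt7 and Gata3) and 1 lower (Krt19), with a median of -0.05. In the Jarid2-/- labelled arrays 0 were called higher and 3 lower, with a median of -0.20. The sum over 18 endoderm markers, of which Apoe gives a large share, lay between 13195 and 15325 in wild type and 22825 and 23341 in Ezh2-/-. It lay between 17162 and 17764 in Eed-/- and 16642 and 18749 in the Jarid2-/- labelled arrays. In Ezh2-/- 3 of the 18 were called higher (Sox7, Lama1 and Apoe) and 5 lower (Foxa2, Dab2, Col4a1, Col4a2 and Hnf4a), with a median of -0.06, so the sum and the counts run opposite ways. In Eed-/- 9 of the 18 were called higher and 1 lower, with a median of 0.34. In the Jarid2-/- labelled arrays 4 were called higher and 5 lower, with a median of -0.05. The part of these shifts in the redox genes was not tested, and in bulk RNA fewer cells of a type and less RNA per cell cannot be told apart.

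Gpx2 encodes a selenium-dependent glutathione peroxidase best known from the lining of the gut, which reduces hydroperoxides. Its single probe set read 339.6 and 290.5 in wild type, 3520.5 and 3523 in Ezh2-/-, 1320.1 and 1150.4 in Eed-/- and 721 and 586 in the Jarid2-/- labelled arrays. Every mutant array was above both wild type arrays, and the 4 groups did not overlap, in the order Ezh2-/-, Eed-/-, Jarid2-/-, wild type. The group means were 315 ± 34.7 (SD, n = 2, here and below) in wild type and 3522 ± 1.73 in Ezh2-/-, 11.2 times as high. Means in Eed-/- and in the Jarid2-/- labelled arrays were 3.92 and 2.08 times the wild type mean. On the log2 scale, with 16 added to each signal, which understates the change of dim genes, the differences from wild type were 3.42 (SE 0.13) in Ezh2-/-, 1.92 (SE 0.13) in Eed-/- and 1.01 (SE 0.13) in the Jarid2-/- labelled arrays. Ezh2-/- exceeded Eed-/- by 2.85-fold in the means. The RefSeq window from 250 bases before to 50 after the Gpx2 start (chr12:76795505-76795804, minus strand, GRCm38.p6) is shown because it holds 0 CpG dinucleotides, where the median of all 32851 such windows is 7 and the quartiles are 3 and 20; any CpG would stand in capitals.
Gpx2: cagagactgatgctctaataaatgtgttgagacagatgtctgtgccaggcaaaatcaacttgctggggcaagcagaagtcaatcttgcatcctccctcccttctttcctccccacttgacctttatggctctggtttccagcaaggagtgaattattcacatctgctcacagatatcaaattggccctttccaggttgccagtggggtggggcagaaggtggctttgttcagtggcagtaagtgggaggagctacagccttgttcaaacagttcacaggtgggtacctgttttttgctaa

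Glrx encodes glutaredoxin, which frees proteins from mixed disulphides with glutathione, and it went the opposite way to Gpx2 in Ezh2-/-. Its brighter probe set read 1979 and 1536 in wild type, 168 and 164 in Ezh2-/-, 2565 and 2661 in Eed-/- and 728 and 619 in the Jarid2-/- labelled arrays. The groups did not overlap, and their order was Eed-/-, wild type, Jarid2-/-, Ezh2-/-. The Ezh2-/- mean was 166 ± 2.99 against 1758 ± 314 in wild type, a 10.6-fold lower value that lay only just above the highest negative control of 147.91. The mean in the Jarid2-/- labelled arrays was 2.61-fold lower than in wild type and that in Eed-/- 1.49 times as high. The log2 differences from wild type were -3.27 (SE 0.13) in Ezh2-/-, 0.58 (SE 0.13) in Eed-/- and -1.36 (SE 0.13) in the Jarid2-/- labelled arrays. The span between Eed-/- and Ezh2-/- was the widest of all members, with Ezh2-/- minus Eed-/- at -3.85 (SE 0.13). The dimmer probe set gave the same order and read 116 and 126 in Ezh2-/-, within the range of the negative controls, so its log2 difference of -2.33 (SE 0.12) is not exact. It had 0.61 in Eed-/- and -1.05 in the Jarid2-/- labelled arrays. The Glrx window (chr13:75839635-75839934, plus strand) holds 4 CpG, in capitals, and is shown beside that of Gpx2 because the 2 genes had the widest spans.
Glrx: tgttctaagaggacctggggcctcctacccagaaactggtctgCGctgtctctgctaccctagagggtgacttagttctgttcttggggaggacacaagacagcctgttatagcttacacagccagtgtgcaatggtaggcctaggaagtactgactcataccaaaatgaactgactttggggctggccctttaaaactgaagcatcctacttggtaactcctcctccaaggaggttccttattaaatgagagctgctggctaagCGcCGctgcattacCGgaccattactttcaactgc

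**Figure D1:**
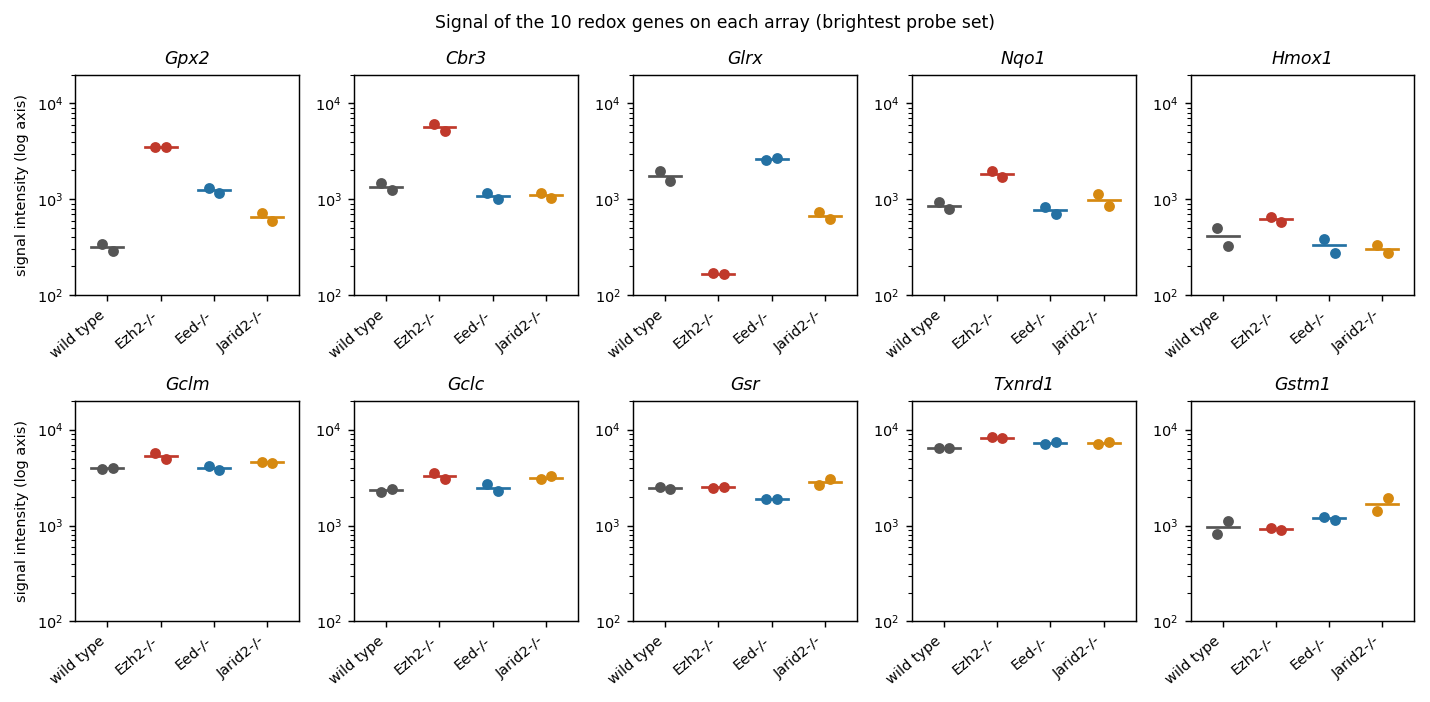
Signal intensity (log axis) of each of the 10 genes at its brightest probe set, with the arrays of each genotype as points and the group mean as a line. Gpx2 stands at 3520 and 3523 in Ezh2-/- against 339.6 and 291 in wild type, Glrx at 168 and 164 against 1979 and 1536, while Txnrd1 and Gsr vary by less than 2-fold over all arrays.

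Cbr3 and Nqo1 encode reductases that use NADPH, of carbonyls and quinones for CBR3 and of quinones for NQO1. Cbr3 read 1481 and 1235 in wild type, 6122 and 5162 in Ezh2-/-, 1163 and 999.8 in Eed-/- and 1174 and 1023 in the Jarid2-/- labelled arrays. Both Ezh2-/- arrays lay far above all others, with a mean of 5642 ± 679 that was 4.15 times the wild type mean of 1358 ± 174, while the arrays of Eed-/- and Jarid2-/- overlapped each other and lay below wild type. The log2 differences were 2.04 (SE 0.13) in Ezh2-/-, -0.32 (SE 0.13) in Eed-/- and -0.30 (SE 0.13) in the Jarid2-/- labelled arrays. Ezh2-/- minus Eed-/- was 2.37 (SE 0.13) and Ezh2-/- minus Jarid2-/- 2.34 (SE 0.13), so the raised Cbr3 signal was seen on the Ezh2-/- arrays and on none of the other mutant arrays. The Cbr3 window (chr16:93682969-93683268, plus strand) holds 19 CpG, in capitals, against none in that of Gpx2. The quartiles of all windows are 3 and 20. PRC2 binding was not measured, and the counts do not show it.
Cbr3: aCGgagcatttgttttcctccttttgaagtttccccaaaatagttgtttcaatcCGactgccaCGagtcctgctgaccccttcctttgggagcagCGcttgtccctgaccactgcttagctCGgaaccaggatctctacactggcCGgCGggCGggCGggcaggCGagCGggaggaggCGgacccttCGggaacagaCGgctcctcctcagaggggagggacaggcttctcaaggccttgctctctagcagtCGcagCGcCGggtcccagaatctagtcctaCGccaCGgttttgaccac

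Nqo1 read 934 and 786 in wild type, 1972 and 1726 in Ezh2-/-, 839.5 and 700.1 in Eed-/- and 1136 and 849 in the Jarid2-/- labelled arrays. Here too the Ezh2-/- arrays were the highest, and the other groups overlapped with wild type. The Ezh2-/- mean of 1849 ± 174 was 2.15 times the wild type mean of 859.9 ± 105. The log2 differences were 1.09 (SE 0.16) in Ezh2-/-, -0.16 (SE 0.16) in Eed-/- and 0.19 (SE 0.16) in the Jarid2-/- labelled arrays. Hmox1, whose product opens the haem ring and releases iron and biliverdin, read 500.2 and 326 in wild type, 648 and 586 in Ezh2-/-, 386 and 278 in Eed-/- and 335 and 276 in the Jarid2-/- labelled arrays. The 2 wild type arrays differed more than those of any other group: their mean was 413 ± 123 and that of Ezh2-/- 617 ± 44.3. The log2 differences were 0.59 (SE 0.21) in Ezh2-/-, -0.29 (SE 0.21) in Eed-/- and -0.39 (SE 0.21) in the Jarid2-/- labelled arrays, and only the Ezh2-/- arrays did not overlap with wild type.

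The genes of glutathione synthesis differed by less. Gclc encodes the catalytic and Gclm the modifier subunit of glutamate-cysteine ligase. Gclc read 2219.7 and 2427 in wild type, 3494 and 3084 in Ezh2-/-, 2682 and 2272 in Eed-/- and 3057 and 3274 in the Jarid2-/- labelled arrays. The Ezh2-/- and Jarid2-/- arrays overlapped each other and lay above wild type, and Eed-/- overlapped with wild type. Its log2 differences were 0.50 (SE 0.11) in Ezh2-/-, 0.09 (SE 0.11) in Eed-/- and 0.44 (SE 0.11) in the Jarid2-/- labelled arrays, and its dimmer probe set had 0.53 in Ezh2-/-, 0.01 in Eed-/- and 0.29 in the Jarid2-/- labelled arrays. Gclm read 3888 and 4003 in wild type, 5737 and 5002 in Ezh2-/-, 4225 and 3782 in Eed-/- and 4600.4 and 4507 in the Jarid2-/- labelled arrays. It was highest in Ezh2-/-, at 5369.7 ± 520.0 against 3945 ± 81.1 in wild type, with log2 differences of 0.44 (SE 0.08) in Ezh2-/-, 0.02 (SE 0.08) in Eed-/- and 0.21 (SE 0.08) in the Jarid2-/- labelled arrays. Both subunits thus had positive differences in Ezh2-/- and in the Jarid2-/- labelled arrays, and the Eed-/- arrays overlapped with wild type for both.

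The Gclm window is shown because it holds 48 CpG (capitals), the most among the 11 member windows and above the upper quartile of 20, and because it holds the motif TGACNNNGC, the core of the antioxidant response element at which NFE2L2 binds (chr3:122245307-122245606, plus strand). RefSeq windows were given for 7 of the 10 members, and those of Hmox1, Gclc and Gsr were not used here. The motif was searched on both strands and was found in a window of 2 of the 7, Gclm and Txnrd1, where 14% of 27025 genes have it in a window. A match describes letters and not binding. It lies on the opposite strand to the gene in both, 134 bases before the Gclm start (TGACGGTGC on that strand) and 92 bases before a Txnrd1 start downstream of the first one (TGACAAAGC). The whole Gclm window and then the stretch around each match follow, the latter with the match in capitals on the strand of the gene (Gclm at chr3:122245413-122245441 and Txnrd1 at chr10:82859104-82859132, both plus strand).
Gclm: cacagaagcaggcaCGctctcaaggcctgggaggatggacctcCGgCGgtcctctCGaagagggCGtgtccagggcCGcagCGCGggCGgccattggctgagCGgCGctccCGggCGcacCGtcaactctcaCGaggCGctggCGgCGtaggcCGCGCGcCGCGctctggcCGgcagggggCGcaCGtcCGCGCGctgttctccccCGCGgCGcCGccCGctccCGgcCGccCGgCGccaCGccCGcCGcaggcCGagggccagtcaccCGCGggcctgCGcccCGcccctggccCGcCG
Gclm match: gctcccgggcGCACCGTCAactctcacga
Txnrd1 match: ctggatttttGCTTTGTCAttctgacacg

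Gsr and Txnrd1 encode glutathione reductase and cytosolic thioredoxin reductase, which restore the reduced forms of glutathione and thioredoxin. Txnrd1 read 6447 and 6399.9 in wild type, 8442 and 8105 in Ezh2-/-, 7169 and 7433 in Eed-/- and 7159 and 7529 in the Jarid2-/- labelled arrays at its brightest probe set. All 6 mutant arrays lay above both wild type arrays, Ezh2-/- was highest, and Eed-/- and Jarid2-/- overlapped. The log2 differences were 0.36 (SE 0.05) in Ezh2-/-, 0.18 (SE 0.05) in Eed-/- and 0.19 (SE 0.05) in the Jarid2-/- labelled arrays. The 2 dimmer Txnrd1 probe sets had the same sign in every mutant with larger values, 0.61 and 0.75 in Ezh2-/-, 0.49 and 0.59 in Eed-/- and 0.28 and 0.35 in the Jarid2-/- labelled arrays.

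Gsr read 2537 and 2409 in wild type, 2475 and 2515 in Ezh2-/-, 1911 and 1897 in Eed-/- and 2670.4 and 3069 in the Jarid2-/- labelled arrays at its brighter probe set, where Eed-/- was lowest and Ezh2-/- overlapped with wild type. Its 2 probe sets disagreed. The log2 differences were 0.01 (SE 0.09) in Ezh2-/-, -0.37 (SE 0.09) in Eed-/- and 0.21 (SE 0.09) in the Jarid2-/- labelled arrays at the brighter and -0.39 (SE 0.10) in Ezh2-/-, -0.61 (SE 0.10) in Eed-/- and -0.20 (SE 0.10) in the Jarid2-/- labelled arrays at the dimmer, so both were lower in Eed-/-, while the sign of the value in the Jarid2-/- labelled arrays depended on the probe set. For Ezh2-/- the brighter probe set did not separate the groups and the dimmer one did.

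Gstm1 encodes a mu-class glutathione S-transferase, which joins glutathione to electrophiles. It read 816 and 1108 in wild type, 951 and 896 in Ezh2-/-, 1240.0 and 1129 in Eed-/- and 1427 and 1945 in the Jarid2-/- labelled arrays at its brightest probe set. The Jarid2-/- labelled arrays were highest, the Ezh2-/- arrays lay between the 2 wild type arrays, and the 2 arrays of a group differed most in wild type and Jarid2-/-. The log2 differences were -0.04 (SE 0.17) in Ezh2-/-, 0.31 (SE 0.17) in Eed-/- and 0.80 (SE 0.17) in the Jarid2-/- labelled arrays. All 4 Gstm1 probe sets were higher in the Jarid2-/- labelled arrays, with values down to 0.38 (SE 0.12). By its type (_x_at) the brightest may also read related mu-class transcripts, and so may another of the 4, while the other two gave 0.78 and 0.38.

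**Figure D2:**
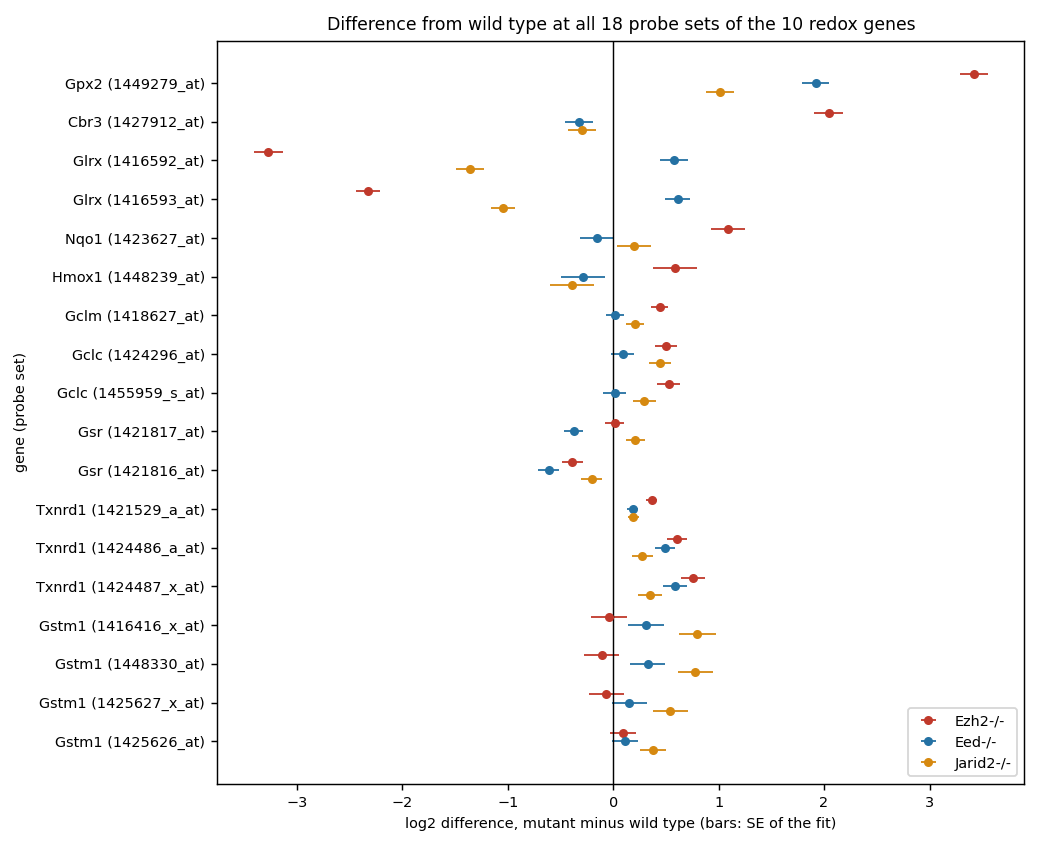
Log2 difference of each mutant from wild type (x axis, bars are the SE of the fit) at all 18 probe sets of the 10 genes (y axis), brightest first within a gene. Points for Ezh2-/- reach from -3.27 (Glrx) to 3.42 (Gpx2), and the probe sets of Glrx, Gclc and Txnrd1 share a sign in every mutant.

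At the brightest probe set, the median log2 difference over the 10 members was 0.47, 0.05 and 0.20 in Ezh2-/-, Eed-/- and the Jarid2-/- labelled arrays, against -0.08, -0.06 and -0.08 over all genes. The 3 comparisons share the wild type arrays. The arrays of every mutant lay above wild type without overlap for Gpx2 and Txnrd1, and those of Glrx lay apart from wild type in every mutant with different signs. The members were chosen with these differences known, so nothing is read from their share.

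Nqo1, Hmox1 and Gsr lie on chromosome 8, where the median gene was lower in every mutant. Over 337 other genes of chromosome 8 with a mean signal above 500, the median log2 differences of Ezh2-/-, Eed-/- and Jarid2-/- from wild type were -0.31, -0.34 and -0.30. Over all 5929 such genes they were -0.04, 0.01 and -0.03, and on the other 6 chromosomes with members they lay between -0.03 and 0.07. Set against the chromosome median, Nqo1 stood at 1.40, 0.18 and 0.50, Hmox1 at 0.90, 0.05 and -0.09, and Gsr at 0.32, -0.03 and 0.51 in the same order. These are values of the brightest probe sets. The dimmer Gsr probe set had log2 differences of -0.39 (SE 0.10) in Ezh2-/- and -0.61 (SE 0.10) in Eed-/-, both below the chromosome median. In the Jarid2-/- labelled arrays its difference was -0.20 (SE 0.10), above the chromosome median of -0.30. The part of the chromosome-wide shift in these 3 genes was not tested.

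**Figure D3:**
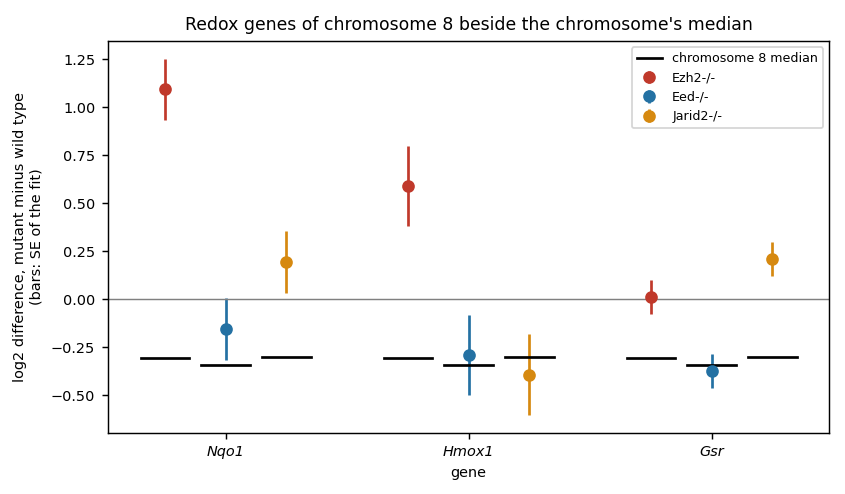
Log2 difference from wild type (y axis, points with the SE of the fit) of the 3 members on chromosome 8, with the median of 337 other genes of that chromosome as a black line for each mutant. Nqo1 and Hmox1 in Ezh2-/- stand above the line, at 1.09 and 0.59 against -0.31, while Gsr in Eed-/- stands beside it at its brighter probe set.

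Among the regulators, Nfe2l2 read 2189 and 2684 in wild type, 2722 and 2814 in Ezh2-/-, 2286 and 2509 in Eed-/- and 3193 and 3751 in the Jarid2-/- labelled arrays, where it rose (log2 0.51, SE 0.12, adjusted p = 0.016). That call ended without wild type replicate 1 (0.36) or Jarid2-/- replicate 2 (0.40). Its difference was 0.19 (adjusted p = 0.27) in Ezh2-/- and -0.02 (adjusted p = 0.93) in Eed-/-. The arrays read its messenger RNA only, and the activity of the NFE2L2 protein was not measured. Keap1 passed in no mutant at either probe set, with log2 0.17 (adjusted p = 0.26), 0.21 (adjusted p = 0.19) and -0.04 (adjusted p = 0.82) at the brighter one. In the same order the dimmer one had 0.24, 0.17 and 0.32 (adjusted p = 0.11, 0.27 and 0.056 with limma). The sign in the Jarid2-/- labelled arrays thus depended on the probe set. Bach1, a repressor of Hmox1, rose in Eed-/- from 1231 ± 305 to 2084 ± 132 (adjusted p = 0.025; log2 difference 0.77, SE 0.19) and in the Jarid2-/- labelled arrays from 1231 ± 305 to 2152 ± 504 (adjusted p = 0.02; log2 difference 0.80, SE 0.19), with both probe sets past the threshold in each. At the brighter probe set the call in Eed-/- ended without wild type replicate 1 (0.52) or Eed-/- replicate 1 (0.71) or Eed-/- replicate 2 (0.84), and that in the Jarid2-/- labelled arrays without wild type replicate 1 (0.55) or Jarid2-/- replicate 2 (0.56). In Ezh2-/- Bach1 was at log2 0.34 (adjusted p = 0.23). Of the 14 regulators, 1 was higher in Ezh2-/- (Park7; 7.14%, beside 9.67% of all genes) and 4 were lower (Maff, Sqstm1, Cul3 and Ahr; 28.6%, beside 17.9%). In Eed-/- 2 were higher (Bach1 and Ahr; 14.3%, beside 7.88%) and 0 lower (with limma, 2 at an unadjusted p under 0.05), beside 11.1%. In the Jarid2-/- labelled arrays 4 were higher (Nfe2l2, Bach1, Bach2 and Park7; 28.6%, beside 5.99%) and 1 lower (Cul3; 7.14%, beside 14.2%). No test of the list was made.

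The other 90 genes went both ways in Ezh2-/-, with 13 higher (14.4%, beside 9.67% of all genes), 20 lower (22.2%, beside 17.9%) and 57 not past the threshold, and a median of -0.07 against -0.08 over all genes. With equal array medians the split was 19 higher and 16 lower. The 20 fell to 12 when wild type replicate 2 was left out, and to 11 or 8 when Ezh2-/- replicate 1 or 2 was. Leaving out Ezh2-/- replicate 1 took the 13 to 8. Blvrb, the gene of biliverdin reductase B, rose from 794 ± 168 to 2287 ± 232 (log2 difference 1.52, SE 0.16, adjusted p = 0.00025 with limma). The aldo-keto reductase gene Akr1b8 rose from 794 ± 105 to 1957 ± 202 (adjusted p = 0.0027; log2 difference 1.29, SE 0.21), and the metallothionein gene Mt1, which lies on chromosome 8, rose from 11748 ± 83.1 to 20959.7 ± 652 (adjusted p = 1.4e-06; log2 difference 0.83, SE 0.04). Nxn, a thioredoxin-like oxidoreductase, and the omega-class transferase Gsto1 rose as well (log2 0.79 and log2 0.66). These 5 calls held in all 17 settings tried, which include leaving out each array.

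Of 19 transferases 1 was higher in Ezh2-/- (5.26%, beside 9.67% of all genes), 5 were lower (26.3%, beside 17.9%) and 13 did not pass. Of 7 peroxidases 0 were higher (1 with limma at an unadjusted p under 0.05), 2 lower (28.6%, beside 17.9%) and 5 not past. Neither list was tested against other genes. The pi-class gene Gstp1 fell from 9879.5 ± 274 to 4521 ± 77.5 (adjusted p = 1e-05; log2 difference -1.12, SE 0.07). Gpx8, a peroxidase of the endoplasmic reticulum, fell from 396 ± 26.5 to 197 ± 0.226 (adjusted p = 0.0043; log2 difference -0.95, SE 0.17). Cbr4, a carbonyl reductase gene of chromosome 8, was lower (log2 -0.88). The aldehyde dehydrogenase gene Aldh3a1 passed the threshold as lower, but no group rose above the negative controls, so no fold is given. The microsomal transferase gene Mgst1 was lower too (log2 -0.89), and this call was lost on leaving out wild type replicate 2 (-0.46) or Ezh2-/- replicate 1 (-0.95) or Ezh2-/- replicate 2 (-0.84), and also without an intensity trend (adjusted p = 0.055). Of 15 thioredoxin, glutaredoxin and peroxiredoxin genes, 5 were higher (Txn2, Txnrd3, Srxn1, Nxn and Msrb1, 33.3% beside 9.67% of all genes). Another 3 were lower (Glrx2, Prdx2 and Msra, 20% beside 17.9%) and 7 did not pass. Prdx2 lies on chromosome 8, and the part of the chromosome-wide shift was not tested.

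In Eed-/- 8 of the 90 genes were higher (8.89%, beside 7.88%), 14 lower (15.6%, beside 11.1%) and 68 not past, with a median of -0.05 against -0.06 over all genes. The 8 fell to 5 without Eed-/- replicate 2. The 14 fell to 5 without that array, to 8 without Eed-/- replicate 1, to 7 without wild type replicate 2 and to 9 without either Ezh2-/- array, and to 8 without an intensity trend or with only the compared groups in the fit. The higher genes included 4 of 17 in glutathione synthesis, recycling and NADPH supply (23.5%, beside 7.88%). Ggct, an enzyme of the glutathione cycle that frees pyroglutamate, rose from 1122 ± 19.5 to 3150.2 ± 291 (adjusted p = 5.2e-05; log2 difference 1.47, SE 0.10), and Chac1, which breaks glutathione down, rose from 748 ± 34.4 to 1451 ± 15.7 (adjusted p = 0.0018; log2 difference 0.94, SE 0.13). Gsto1 (log2 0.87) and Me1, a malic enzyme that yields NADPH (log2 0.78), rose too. Enzymes of quinones, carbonyls, haem, iron and superoxide gave 0 higher (1 with limma at an unadjusted p under 0.05), 7 lower (38.9%, beside 11.1% of all genes) and 11 not past of 18, with Cbr1 lower from 2113 ± 77.2 to 1246 ± 8.96 (adjusted p = 0.0011; log2 difference -0.75, SE 0.09). Of those 7, Cbr4 and Mt1 lie on chromosome 8, as does Prdx2 among the 14; the part of the chromosome-wide shift was not tested. Cbr4 was lower (log2 -0.76), and this call was lost on leaving out Eed-/- replicate 1 (-0.69). Of the 19 transferases 1 was higher (5.26%, beside 7.88%) and 4 were lower (21.1%, beside 11.1%). Of the 7 peroxidases 0 were higher and 1 lower (14.3%, beside 11.1%). Gsta3 and Gstt1 were lower (log2 -0.87 and log2 -0.67). Mgst2 passed the threshold as lower, with all groups within the negative control range, so no fold is given. The calls ended for Gsta3 without wild type replicate 1 (-0.75) or Eed-/- replicate 2 (-0.78), for Gstt1 without wild type replicate 2 (-0.50) or Eed-/- replicate 1 (-0.62) or Eed-/- replicate 2 (-0.72) and for Mgst2 without Eed-/- replicate 2.

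In the Jarid2-/- labelled arrays 15 were higher (16.7%, beside 5.99%), 16 lower (17.8%, beside 14.2%) and 59 not past, with a median of 0.0011 against -0.08 over all genes. The 15 fell to 9 without Jarid2-/- replicate 2 and the 16 to 10 without wild type replicate 2. Of the 17 genes of glutathione synthesis, recycling and NADPH supply, 4 were higher (Slc3a2, Chac1, Pgd and Cth, 23.5% beside 5.99%), as many as in Eed-/-. Another 3 were lower (Gss, Ggct and Me1, 17.6% beside 14.2%), of which Ggct and Me1 were higher in Eed-/-. Cth, which makes cysteine from cystathionine, rose from 3559 ± 793 to 8555 ± 115 (adjusted p = 0.0003; log2 difference 1.28, SE 0.12), and Chac1 rose from 748 ± 34.4 to 1675 ± 265 (adjusted p = 0.00056; log2 difference 1.14, SE 0.13). The theta-class gene Gstt2 was higher (log2 0.97), and this call was lost on leaving out wild type replicate 1 (0.77) or Ezh2-/- replicate 1 (0.97) or Ezh2-/- replicate 2 (0.97) or Jarid2-/- replicate 2 (0.71), and also without an intensity trend (adjusted p = 0.058). Bach2, related to Bach1, was higher (log2 0.78) from a wild type signal no brighter than the top negative control, and its call ended without Jarid2-/- replicate 2 (0.63). Among the lower genes the alpha-class transferase gene Gsta3 fell from 508 ± 59.8 to 217 ± 60.9 (adjusted p = 0.0031; log2 difference -1.19, SE 0.19) and the secreted peroxidase gene Gpx3 fell from 522 ± 38.4 to 288 ± 3.92 (adjusted p = 0.0025; log2 difference -0.82, SE 0.12). Gpx8 (log2 -0.91) and Gstm5 (log2 -0.87) fell, the latter a mu-class gene with the opposite sign to Gstm1. Of the 19 transferases 3 were higher (15.8%, beside 5.99%) and 4 lower (21.1%, beside 14.2%). Of the 7 peroxidases 0 were higher and 2 lower (28.6%, beside 14.2%). Ephx1, an epoxide hydrolase gene, was lower (log2 -0.79), and this call was lost on leaving out wild type replicate 2 (-0.45) or Ezh2-/- replicate 1 (-0.79) or Ezh2-/- replicate 2 (-0.79) or Jarid2-/- replicate 1 (-0.58), and also with only the compared groups (adjusted p = 0.087).

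**Figure D4:**
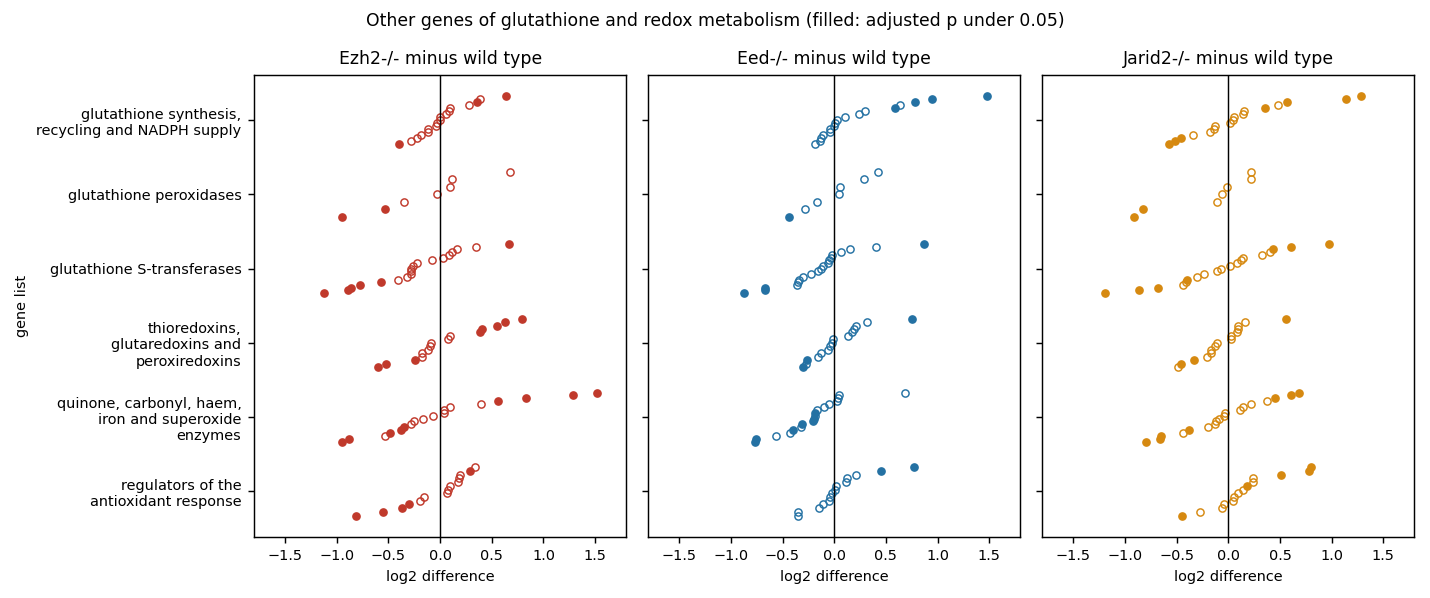
Log2 difference from wild type (x axis) of 90 other redox genes at their brightest probe set, by gene list (y axis) and mutant (panels), with filled points for an adjusted p under 0.05. The largest called increases are those of Blvrb in Ezh2-/- (1.52), Ggct in Eed-/- (1.47) and Cth in the Jarid2-/- labelled arrays (1.28).

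The genes whose signal over the 8 arrays was most like that of Gpx2 and Glrx were taken among 525 with a mean above 500 and a span of group means of at least 1 on the log2 scale. For Gpx2 they were Mapt, Ckap4, Ccnd3, Slc39a4 and Apoa2, with Pearson's r between 0.97 and 0.98. For Glrx they were Fmr1nb, Cap1, Gtf2b, Cd276 and Eif2s3y, with r between 0.98 and 0.998. Fmr1nb means were 1999.6, 221, 2966 and 817 in wild type, Ezh2-/-, Eed-/- and the Jarid2-/- labelled arrays, beside 1758, 166, 2613 and 674 for Glrx. Eif2s3y is Y-linked. Its means were 1597 in wild type, 16.7 in Ezh2-/-, 2192 in Eed-/- and 502 in the Jarid2-/- labelled arrays. The Ezh2-/- mean lay below the lowest negative control of 23.76. The cause of this difference between the lines, and its part in the redox genes, was not tested. The r given for Gpx2 and Glrx describe 4 pairs of arrays, so they mostly compare 4 group means.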

How the data were processed

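Total RNA was isolated with Trizol, copied into biotin-labelled cRNA and hybridised to the arrays, per the labels' protocols. The values used are the deposited probe set intensities, on a linear scale, for 8 arrays; their summarisation and normalization are not given in the sources used here. Another deposited table has 12 columns whose names match no sample label, and it was not used here. Intensities were floored at 1, 16 was added and the log2 taken, and 64 control probe sets were left out. The fit was limma 3.58.1 in R 4.3.3, with 1 mean for each genotype, on all 8 arrays together (4 residual degrees of freedom, 5.015 from the prior) and an intensity trend. Benjamini-Hochberg adjustment ran over all 22626 probe sets, and a gene was called at an adjusted p under 0.05 at its brightest probe set. Of the probe sets, 20380 have 1 symbol in the platform annotation, 691 several and 1555 none, and only the first kind was named. The members and the gene lists were chosen with earlier results of these data known. The lists name 104 genes, of which 90 were measured and 14 not analysed here. Named were, per mutant, the 5 called list genes with the largest increase and the 5 with the largest decrease, besides Nfe2l2, Keap1 and Bach1; genes listed by name in a count are the called members of that list. Promoter windows are from RefSeq, and array files name no genome build, so only chromosomes are given for genes. The fit was tested on simulated data. Precision is limited by the few arrays. Alternatives were another added constant, equal array medians, quantile normalization, a filter on dim probe sets, no intensity trend, only the compared groups, averaged probe sets per gene, the replicate number as a block, and each array left out in turn. Replicate numbers are shared between the groups, but no label says that a number marks a shared culture, so no pairing was used. The deviations of same-numbered arrays did correlate between wild type and Jarid2-/- (r = 0.41). Counts with a replicate block are given below.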

Additional observations from a re-analysis of the deposited data

How the results depend on the processing

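Of 510 alternative values for the 30 member differences from wild type, 495 moved by less than the spread between replicates and 15 moved by more. Leaving out an array cannot move a difference by more than that spread. Settings such as no intensity trend or only the compared groups leave the difference as it is. Many of the 510 were thus bound to stay, and the count of 495 does not measure stability. For 6 of the 30 the sign changed under some alternative: Gclc, Gclm and Hmox1 in Eed-/-, Gsr and Gstm1 in Ezh2-/- and Nqo1 in Jarid2-/-. Of 102 alternative counts over the 90 other genes, 88 lay within 1.5 times the reported count. The lower genes in Eed-/- numbered 8 without an intensity trend and 8 with only the compared groups, against 14. Leaving out each array in turn gave 8 to 14 higher and 8 to 22 lower genes in Ezh2-/-, 5 to 10 and 5 to 14 in Eed-/-, and 9 to 16 and 10 to 18 in the Jarid2-/- labelled arrays. With a replicate block in the fit, the counts were 16 higher and 23 lower in Ezh2-/-, 12 and 15 in Eed-/-, and 18 and 18 in Jarid2-/-. The deviations of same-numbered arrays correlated at 0.41 between wild type and Jarid2-/-, at 0.24 between Eed-/- and Jarid2-/-, and at 0.0075 to 0.05 in the other 4 pairs of groups. Of the 30 named calls, 19 held in all 17 settings. The filter on dim probe sets kept 12286 and removed Aldh3a1, Gstt1, Mgst2 and Bach2, and the calls of Nfe2l2, Bach1 and Ephx1 in Jarid2-/- ended with only the compared groups, as did those of Mgst1 in Ezh2-/- and Gstt2 in Jarid2-/- without an intensity trend. Causes were not tested. Signals near the negative controls, such as Glrx in Ezh2-/-, have no exact fold.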

Other observations

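Cbr3, Nqo1 and Hmox1 read higher on the array numbered 1 than on the array numbered 2 in all 4 groups. That is 3 of the 10 members, or 30%, where 1129 of 12393 genes (9.11%) did so. No member was higher on the array numbered 2 in all 4 groups, against 1422 genes (11.5%).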
